A study of Mus musculus with 12 samples.

Results

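Chemokine receptors guide eosinophils out of the bone marrow, through the blood and into tissues. The 8 receptor genes described here were Ccr3, Ccr1, Ccr2, Ccr1l1, Ccrl2, Cxcr2, Cxcr4 and Cx3cr1, chosen by name as receptors for marrow retention, exit and tissue entry and found through their Ensembl identifiers among the 53801 genes of a count table. All 8 were present in the table, and all 8 passed the filter on low counts in each comparison. The 12 libraries were made from RNA of bone marrow eosinophils and blood eosinophils, with 3 libraries for each combination of tissue and genotype. The control mice were eoCre Il5tg and the Atg5-knockout mice were Atg5 flox/flox eoCre Il5tg, so that both genotypes carried the Cre recombinase knocked into the eosinophil peroxidase gene, in a heterozygous state, and the Il5 transgene that expands eosinophils under the Cd3d promoter. Differences between the groups are therefore differences between eosinophils of mice with an excess of this cytokine from T cells and with 1 disrupted Epx allele. The age of the mice used for RNA was not given in the sources used here.

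Chemokine receptors are membrane proteins with several helices that couple to inhibitory G proteins, and a gradient of their ligand turns their signal into directed movement. Ccr3, the receptor of the eotaxins Ccl11 and Ccl24, is the main receptor for entry of eosinophils into tissue, while Cxcr4 and its ligand Cxcl12 hold leukocytes in the bone marrow. Ccrl2 is an atypical member that binds chemerin and does not couple to G proteins.

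The cells were enriched by depleting T cells, B cells and neutrophils with antibodies, and the libraries held between 18885052 and 30270166 counts. The 10 eosinophil marker genes, among them Epx and Prg2, were detected in every library and took 7.97 to 10.2% of the counts in the bone marrow libraries and 1.71 to 3.92% in the blood libraries. In control mean CPM, Siglecf (442 to 850) and Alox15 (2600 to 3080) were higher in blood than in bone marrow. The other genes of this list were lower in control blood, among them Prg2 (45200 to 16300). The paper assessed the purity of the isolated cells by microscopy and by flow cytometry for Siglec-F, and the share of counts does not measure it. The 12 neutrophil genes took 2.30 to 3.29% in bone marrow and 1.20 to 2.2% in blood, the 12 monocyte and macrophage genes took 0.157 to 0.268% over all libraries, and the 12 cell cycle genes took 0.196 to 0.277% in bone marrow and 0.0146 to 0.0218% in blood. The 12 genes of NK and T cells took 0.00975 to 0.0134% in bone marrow and 0.0293 to 0.0694% in blood, the 10 platelet genes 0.0065 to 0.0311% and the basophil and mast cell genes 0.0102 to 0.0395% over all libraries. Blood libraries numbered 1 stood apart. In Control blood replicate 1, 14.6% of the counts fell on 11 red cell genes against 0.422 to 1.42% in the other blood libraries, and the 8 B cell genes took 0.109% in that library and 0.220% in Atg5-Knockout blood replicate 1, against 0.0149 to 0.0387% in the other 4 blood libraries. Atg5 itself, counted over all its exons, had 41.4, 45.4 and 40.5 CPM in the control and 30.6, 31.3 and 33.9 CPM in the Atg5-knockout bone marrow libraries, a log2 fold change of -0.44 (SE 0.108, edgeR adjusted p = 0.157). In blood it had 45.3, 58.8 and 40.1 CPM in the control and 36.7, 52.5 and 52.4 CPM in the Atg5-knockout libraries. A floxed part of the gene was not looked at on its own.

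The receptors differed widely in level. Levels are given as CPM, each library's counts scaled to a common total with TMM factors, for comparisons of 1 gene between libraries, and as CPM per kilobase of gene model (RPKM) for comparisons between genes. Per length, Ccr3 was the highest of the 8 genes in all 4 groups, with 303 ± 39 RPKM (SD, n = 3) in control and 220 ± 40.0 RPKM (SD, n = 3) in Atg5-knockout bone marrow eosinophils, and 482 ± 93.4 and 463 ± 145 RPKM (SD, n = 3 each) in blood eosinophils. This placed Ccr3 at rank 173 of the 22067 genes with a count in control bone marrow and at rank 141 of 21849 in control blood. Cxcr4 was the next in all groups, with 145 ± 34.9 RPKM (SD, n = 3) in control bone marrow and 268 ± 106 RPKM (SD, n = 3) in Atg5-knockout blood, followed by Ccr1, a receptor of Ccl3, Ccl5, Ccl6 and Ccl9, with 100 ± 1.84 RPKM (SD, n = 3) in control bone marrow and 54.5 ± 13.5 RPKM (SD, n = 3) in Atg5-knockout blood. Ccr2, the receptor of Ccl2 known for the exit of monocytes from the marrow, came after them in control bone marrow at 45.7 ± 6.18 RPKM (SD, n = 3).

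The tissues differed in the lower part of this order. In control bone marrow it ran from Cxcr2, the receptor of Cxcl1 and Cxcl2 best known from neutrophils, at 26.7 RPKM, over Cx3cr1, the fractalkine receptor, at 6.67 RPKM and Ccr1l1, a close relative of Ccr1, at 1.88 RPKM, to Ccrl2 at 1.12 RPKM, and no library of one gene reached the range of its neighbour in this order. In control blood Ccr2, Ccrl2, Cxcr2 and Cx3cr1 had overlapping ranges between 8.54 and 31.7 RPKM, and Ccr1l1 was the lowest at 2.91 RPKM. In Atg5-knockout blood Ccrl2 reached 37.5 to 60.1 RPKM and overlapped with Ccr1 at 39.3 to 65.5 RPKM, and Ccr3 at 314 to 604 RPKM overlapped with Cxcr4 at 185 to 387 RPKM. The last pair also overlapped in Atg5-knockout bone marrow, with 179 to 259 RPKM for Ccr3 and 154 to 217 RPKM for Cxcr4, as did Ccr1l1 and Ccrl2, and neither pair overlapped in control bone marrow. As a share of the summed RPKM of the 8 genes within a library, which needs no scaling between libraries, Ccr3 took 47.9 ± 4.60% (SD, n = 3) in control and 37.9 ± 4.45% (SD, n = 3) in Atg5-knockout bone marrow, 57.7 ± 4.57% in control blood and 50.9 ± 4.62% in Atg5-knockout blood (SD, n = 3 each). Ccrl2 took 0.177 and 0.242% of the sum in bone marrow and 2.83 and 5.16% in blood, for control and Atg5-knockout.

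**Figure D1:**
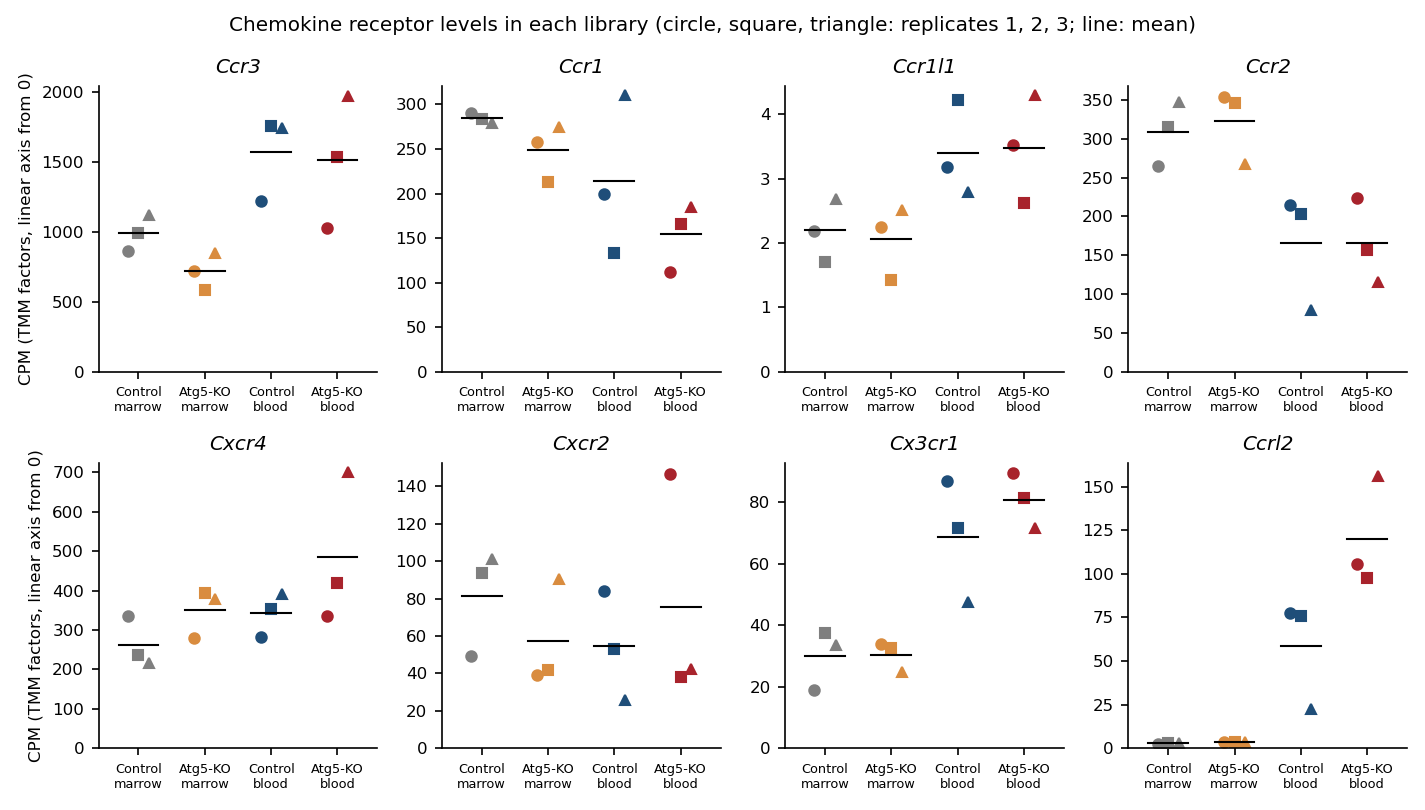
Level of each receptor gene in each of the 12 libraries, as CPM with TMM factors on a linear axis from 0; the symbol gives the replicate number and the line the mean of 3 libraries. Ccrl2 lies between 2.59 and 3.78 CPM in all bone marrow libraries and between 22.6 and 156 CPM in blood, and Cxcr2 is highest, at 147 CPM, in Atg5-Knockout blood replicate 1.

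The comparison of blood with bone marrow within a genotype asks which receptors differ between cells at the site of production and cells that have left it. The Methods describe unlike isolation before the shared depletion step. Blood was spun over a density layer and treated with cold water to lyse red cells, while marrow was flushed out and filtered. Effects of tissue and of isolation cannot be told apart in this design. In control eosinophils 3 of the 8 receptors passed the test, Ccrl2, Cx3cr1 and Ccr3, and all 3 were higher in blood. With 34.2% of all tested genes called in this comparison (16.2% higher and 18% lower), 3 of 8 is a share near that of all genes. In Atg5-knockout eosinophils the same 3 receptors were higher in blood and 2, Ccr2 and Ccr1, were lower, beside 47.6% of all genes called (23.5% higher and 24.1% lower). Called here means an adjusted p under 0.05 in edgeR's quasi-likelihood test with Benjamini-Hochberg adjustment over all genes tested. Among the members, Ccrl2 was the one that also passed a log2 fold change beyond 2, in both genotypes, which 9.58% of all genes did in control and 11.4% in Atg5-knockout eosinophils. The median log2 fold change of the 8 genes was 0.49 in control and 0.63 in Atg5-knockout eosinophils, against -0.0029 and -0.010 over all genes tested. These ratios rest on TMM scaling. With library size alone, the median of all genes shifted to -0.31 in control and -0.24 in Atg5-knockout eosinophils, and higher genes made up 25.1 and 34.3% of the calls in place of 47.3 and 49.4%.

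Ccrl2 had the largest difference between the tissues among the 8. It had 2.59, 3.15 and 2.98 CPM in the control bone marrow libraries (replicates 1, 2 and 3, as in all such lists) and 3.37, 3.78 and 3.68 CPM in the Atg5-knockout ones. In blood it had 77.7, 75.9 and 22.6 CPM in the control and 106, 97.5 and 156 CPM in the Atg5-knockout libraries. Every blood library was above every bone marrow library, and Control blood replicate 3 was the lowest of the blood libraries. Between bone marrow and blood the log2 fold change was 4.32 (SE 0.46, edgeR adjusted p = 0.000242) in control and 5.06 (SE 0.219, edgeR adjusted p = 9.87e-07) in Atg5-knockout eosinophils, the latter a 33.4-fold difference. In bulk RNA a change in the RNA of each cell and a change in the share of cells that express the gene cannot be told apart. Leaving out each library in turn gave log2 fold changes between 4.08 and 4.72 in control and between 4.83 and 5.19 in Atg5-knockout eosinophils.

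Cx3cr1 followed the same direction at a smaller size. Its level was 19.0, 37.5 and 33.7 CPM in control bone marrow and 86.8, 71.6 and 47.7 CPM in control blood. In Atg5-knockout eosinophils it was 33.8, 32.5 and 24.9 CPM in bone marrow and 89.4, 81.4 and 71.6 CPM in blood. No blood library overlapped with the bone marrow libraries of its genotype, a separation found for 50.1% of all genes in control and 60% in Atg5-knockout eosinophils. The log2 fold change was 1.18 (SE 0.298, edgeR adjusted p = 0.0154) in control and 1.42 (SE 0.156, edgeR adjusted p = 0.000137) in Atg5-knockout eosinophils. NK cells are known to express Cx3cr1, and the share of the 12 NK and T cell genes was 0.0106% in control and 0.0117% in Atg5-knockout bone marrow and 0.045 and 0.055% in blood. Over the 6 blood libraries log2 Cx3cr1 had a correlation of 0.912 with the log2 share of these genes, and over the 6 bone marrow libraries of 0.46. In blood the correlation was 0.826 for B cell, 0.606 for neutrophil, 0.156 for monocyte and macrophage and -0.898 for eosinophil genes. The part of any of these cells in the Cx3cr1 values was not tested.

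Ccr3, the eotaxin receptor, was higher in blood as well. It had 864, 993 and 1119 CPM in the control bone marrow libraries and 1224, 1761 and 1744 CPM in control blood. In Atg5-knockout eosinophils it had 722, 586 and 848 CPM in bone marrow and 1026, 1538 and 1976 CPM in blood. The blood libraries numbered 1 were the lowest in blood for both genotypes and still lay above the bone marrow libraries of their genotype. The log2 fold change was 0.66 (SE 0.202, edgeR adjusted p = 0.035), a 1.58-fold difference, in control and 1.09 (SE 0.239, edgeR adjusted p = 0.00529), a 2.13-fold difference, in Atg5-knockout eosinophils. The control call was lost in 7 of 15 other settings, among them library size alone (log2 fold change 0.35, adjusted p = 0.222) and the omission of any 1 of 5 libraries, Control blood replicate 1 being the exception. That omission is counted again among the 15 as the omission of both blood libraries numbered 1.

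Ccr2 and Ccr1 went the other way. Ccr2 had 265, 315 and 347 CPM in control bone marrow and 214, 204 and 79.8 CPM in control blood. In Atg5-knockout eosinophils it had 354, 345 and 268 CPM in bone marrow and 224, 157 and 116 CPM in blood. Both genotypes separated completely by tissue. Control eosinophils had a log2 fold change of -0.91 (SE 0.334, edgeR adjusted p = 0.0631), which was past the threshold in 8 of the same 15 other settings as for Ccr3. Atg5-knockout eosinophils had -0.94 (SE 0.23, edgeR adjusted p = 0.00883). Within blood of each genotype the order of the libraries in Ccr2 was the order of their share of neutrophil genes, which was 1.73, 1.65 and 1.29% in the control and 2.2, 1.35 and 1.20% in the Atg5-knockout libraries. The shares of B cell genes and of NK and T cell genes had the same order. Over the 6 blood libraries the correlations of log2 Ccr2 with the log2 shares were 0.814 for neutrophil and 0.812 for B cell genes. They were 0.739 for NK and T cell, 0.295 for monocyte and macrophage and -0.806 for eosinophil genes. Over the 6 bone marrow libraries the value for monocyte and macrophage genes was 0.306. The part of any of these cells in the Ccr2 values was not tested.

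Ccr1 had 290, 283 and 280 CPM in control bone marrow, the narrowest spread of any member relative to its mean, and 200, 133 and 311 CPM in control blood. In Atg5-knockout eosinophils it had 257, 213 and 274 CPM in bone marrow and 111, 166 and 185 CPM in blood. The control groups overlapped through Control blood replicate 3, and the Atg5-knockout groups did not overlap. The log2 fold change was -0.42 (SE 0.272, edgeR adjusted p = 0.266) in control and -0.67 (SE 0.192, edgeR adjusted p = 0.0184) in Atg5-knockout eosinophils. The latter call was lost without Atg5-Knockout bone marrow replicate 1 (adjusted p = 0.062) or replicate 3 (adjusted p = 0.0716).

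The other 3 receptors did not pass the test in either genotype. Cxcr4, the receptor of marrow retention, had 218 to 335 CPM in control bone marrow and 281 to 392 CPM in control blood, a log2 fold change of 0.37 with a 95% interval from -0.11 to 0.85, and 279 to 393 CPM in Atg5-knockout bone marrow and 335 to 700 CPM in Atg5-knockout blood, a log2 fold change of 0.48 with an interval from -0.11 to 1.07. Without Atg5-Knockout blood replicate 1 the latter was 0.69 (edgeR adjusted p = 0.02). Ccr1l1 was near 2 CPM in bone marrow and 2.62 to 4.29 CPM in blood, from 45 to 96 counts per library, and its log2 fold change was 0.62 (edgeR adjusted p = 0.205) in control and 0.77 (edgeR adjusted p = 0.0962) in Atg5-knockout eosinophils, with the blood libraries above the bone marrow libraries in both.

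Cxcr2 was the most variable receptor in blood. It had 84.2, 53.2 and 26 CPM in the control and 147, 37.9 and 42.5 CPM in the Atg5-knockout blood libraries, and 49.1, 93.8 and 101 CPM in the control and 39.3, 41.9 and 90.5 CPM in the Atg5-knockout bone marrow libraries. Blood differed from bone marrow by a log2 fold change of -0.59 (edgeR adjusted p = 0.294) in control and 0.42 (edgeR adjusted p = 0.532) in Atg5-knockout eosinophils. The sign of the latter rested on Atg5-Knockout blood replicate 1, without which it was -0.50 (edgeR adjusted p = 0.208), and without Control blood replicate 1 the control value was -1.04 (edgeR adjusted p = 0.0364). Both libraries had the highest share of neutrophil genes in their group. Over the 6 blood libraries the correlation of log2 Cxcr2 with the log2 share of neutrophil genes was 0.918, and with that of B cell genes 0.965. The libraries differ in depth and cell content, and the part of these cells was not tested. Without the blood libraries numbered 1, that is without replicate 1 of blood in each genotype's own fit, 5 members were called in control and 6 in Atg5-knockout eosinophils. Of all 14099 genes tested in that setting in control, 2808 were called higher and 3118 lower. Of 14277 tested in Atg5-knockout eosinophils, 3684 were called higher and 4072 lower. Calls over all genes thus also rose from the 34.2 and 47.6% of the main fits.

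**Figure D2:**
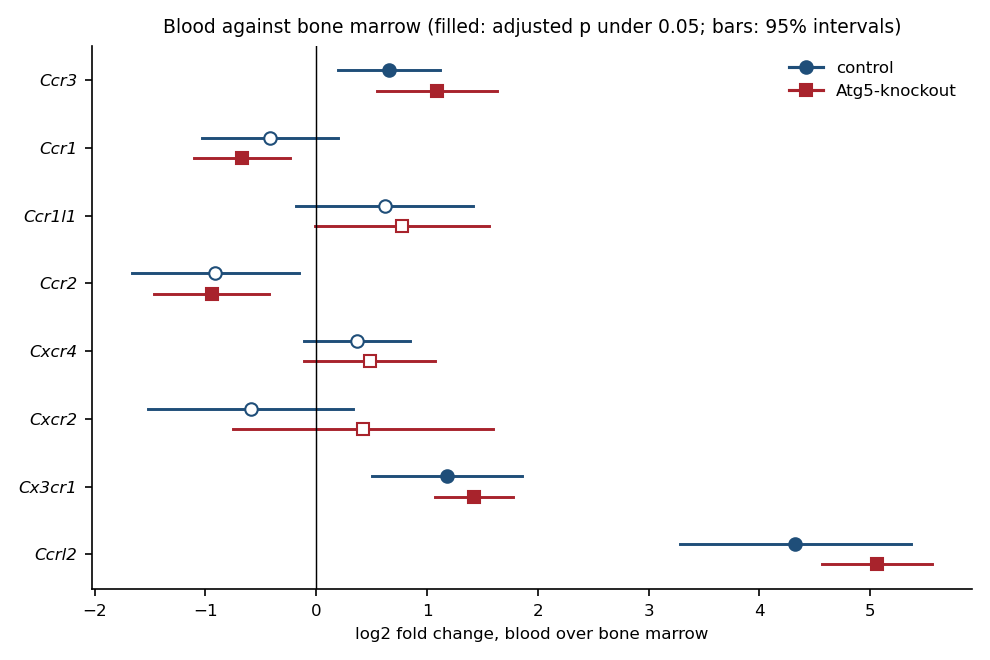
Log2 fold change of each receptor between blood and bone marrow (x axis), for control and Atg5-knockout eosinophils, with 95% intervals from edgeR's test; filled symbols mark an adjusted p under 0.05. Ccrl2 stands at 4.32 and 5.06, and the intervals of the 2 genotypes overlap for each receptor.

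The comparison of Atg5-knockout with control eosinophils within a tissue asks what the loss of Atg5, a gene needed to form autophagosomes, changes in the receptors. In bone marrow none of the 8 receptors passed the test in edgeR, 2 of them (Ccr3 and Cxcr4) had an unadjusted p under 0.05, and DESeq2 called 1 (Ccr3). Of all genes tested, 0.348% were called (0.145% higher and 0.203% lower, and 0.0943% with a log2 fold change beyond 2) and 9.67% had an unadjusted p under 0.05. In blood none passed the test in edgeR or in DESeq2, and 1 (Ccrl2) had an unadjusted p under 0.05, beside 0.0371% of all genes called and 2.58% at the unadjusted threshold. The median log2 fold change of the members was -0.070 in bone marrow and 0.15 in blood, against 0.0029 and 0.0062 over all genes.

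Ccr3 in bone marrow came closest. The 3 Atg5-knockout libraries, at 586 to 848 CPM, lay below the 3 control libraries at 864 to 1119 CPM, although the highest of the former and the lowest of the latter were close. The log2 fold change was -0.49 with a 95% interval from -0.81 to -0.18 (SE 0.146, edgeR adjusted p = 0.251). It was -0.50 in DESeq2 (adjusted p = 0.0462), -0.49 in edgeR without a filter on low counts (adjusted p = 0.00533), and between -0.63 and -0.36 when single libraries were left out. The share of the 12 cell cycle genes was higher in each Atg5-knockout bone marrow library, at 0.249, 0.277 and 0.224%, than in the control libraries, at 0.216, 0.196 and 0.200% (p = 0.1 in a two-sided exact permutation test, which cannot give less with 3 against 3 libraries, and 0.225 after adjustment over 36 tests). Over the 6 bone marrow libraries log2 Ccr3 had a correlation of -0.974 with the log2 share of these genes, and over the 6 blood libraries of -0.988, where their share was 0.0146 to 0.0218%. Other lists also had strong correlations. In bone marrow they were -0.834 for platelet, -0.829 for monocyte and macrophage, -0.79 for red cell, -0.773 for NK and T cell and 0.44 for neutrophil genes. In blood they were -0.937 for B cell, -0.874 for neutrophil, -0.82 for monocyte and macrophage, -0.805 for NK and T cell and 0.784 for eosinophil genes. The part of dividing cells or of any other cells in the Ccr3 values was not tested.

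Cxcr2 had the largest log2 fold change of the members in bone marrow, -0.54 (SE 0.311, edgeR adjusted p = 0.624), with overlapping groups. It was the second member called without a filter on low counts (edgeR adjusted p = 0.00185), and it ranged from -1.04 without Atg5-Knockout bone marrow replicate 3 to -0.32 without Atg5-Knockout bone marrow replicate 1. Cxcr4 had a log2 fold change of 0.39 (SE 0.168, edgeR adjusted p = 0.49), with 335, 236 and 218 CPM in the control and 279, 393 and 379 CPM in the Atg5-knockout libraries, so that replicate 1 of each genotype lay inside the range of the other. Ccr1 had -0.22 (edgeR adjusted p = 0.565) with all Atg5-knockout libraries below the control libraries, and Ccrl2 had 0.29 (edgeR adjusted p = 0.709) with all above. These 2 and Ccr3 were the 3 members whose groups did not overlap, as did not 14.4% of all genes. The intervals of the remaining members were -0.27 to 0.33 for Ccr2, -0.48 to 0.45 for Cx3cr1, -0.77 to 0.52 for Ccr1l1, on the log2 scale, and -1.22 to 0.14 for Cxcr2.

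In blood eosinophils Ccrl2 had the largest difference between the genotypes among the members. All 3 Atg5-knockout libraries, at 97.5 to 156 CPM, lay above the control libraries at 22.6 to 77.7 CPM, a log2 fold change of 1.05 with a 95% interval from 0.08 to 2.01 (SE 0.425, edgeR adjusted p = 1), and it was the only member whose groups did not overlap, beside 7.58% of all genes. Over the other settings the lowest adjusted p of Ccrl2 was 0.139 and its log2 fold change was 0.66 to 1.38. Cxcr4 had a log2 fold change of 0.52 with an interval from -0.13 to 1.18, and Atg5-Knockout blood replicate 3, at 700 CPM, was the highest of all 12 libraries. Ccr1 had -0.46 with an interval from -1.18 to 0.27, Cxcr2 had 0.49 with an interval from -0.79 to 1.77, and Cx3cr1 had 0.25 with an interval from -0.28 to 0.79. Ccr3, Ccr2 and Ccr1l1 had values between -0.04 and 0.05, with intervals that reached at least 0.59 in size on both sides.

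Whether the effect of the genotype differed between blood and bone marrow, or equally the effect of the tissue between the genotypes, was tested as an interaction over the 12 libraries. None of the members was called in edgeR (0% of all genes) or in DESeq2, and none had an unadjusted p under 0.05, as 5.03% of all genes had. The difference was 0.71 on the log2 scale for Ccrl2, with a 95% interval from -0.39 to 1.81, and 0.41 for Ccr3, with an interval from -0.30 to 1.11. The calls of Ccr1 and Ccr2 in Atg5-knockout and not in control eosinophils are therefore not shown to differ between the genotypes, with differences of -0.28 (interval from -1.06 to 0.50) and -0.06 (interval from -1.02 to 0.90).

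**Figure D3:**
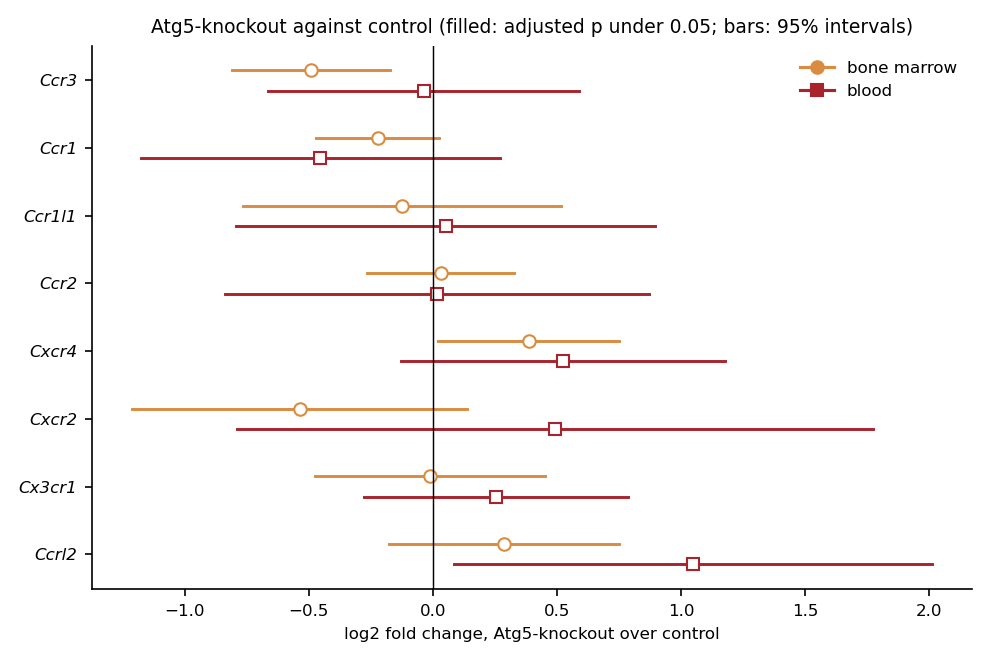
Log2 fold change of each receptor between Atg5-knockout and control eosinophils (x axis), in bone marrow and in blood, with 95% intervals from edgeR's test; open symbols mark an adjusted p of 0.05 or more. No symbol is filled, Ccr3 in bone marrow stands at -0.49 and Ccrl2 in blood at 1.05.

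Ccr1, Ccr1l1, Ccr3 and Ccr2 lie side by side on chromosome 9 (GRCm38), within a cluster of receptor genes, and differed in the direction of their tissue difference. Ccr1 spans 123962124 to 123968692 and Ccr1l1 spans 123977243 to 123978408, both on the minus strand, and Ccr3 spans 124021972 to 124031689 and Ccr2 spans 124101950 to 124113557, both on the plus strand. The Ccr1 start lies 53.3 kb before and the Ccr2 start 80.0 kb after the Ccr3 start, and Ccr3 was called higher in blood in both genotypes while Ccr1 and Ccr2 were called lower in Atg5-knockout eosinophils. Before Ccr1, Fyco1, an autophagosome transport gene at -170.1 kb, rose in blood in both genotypes (log2 fold changes 0.93 and 0.69, edgeR adjusted p = 0.013 and 0.0383), and Cxcr6 and Xcr1 had at most 23 and 39 counts in any group. The spans of Ccr1, Ccr1l1, Ccr3 and Ccr2 overlapped with that of no other gene of the table. For the other members an overlap of exons with other genes was not tested. Transcripts of Ccr3, Ccr1, Ccr1l1, Ccrl2 and Cxcr4 shared runs of at most 47 bases with other genes, below the read length of 100 bases. Runs of at least the read length were shared by Ccr2 with 3 other genes, by Cxcr2 with 1 (Ranbp17, 109 bases) and by Cx3cr1 with 2 (the longest with Scfd2, 112 bases), and reads inside these runs could not be assigned to 1 gene.

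**Figure D4:**
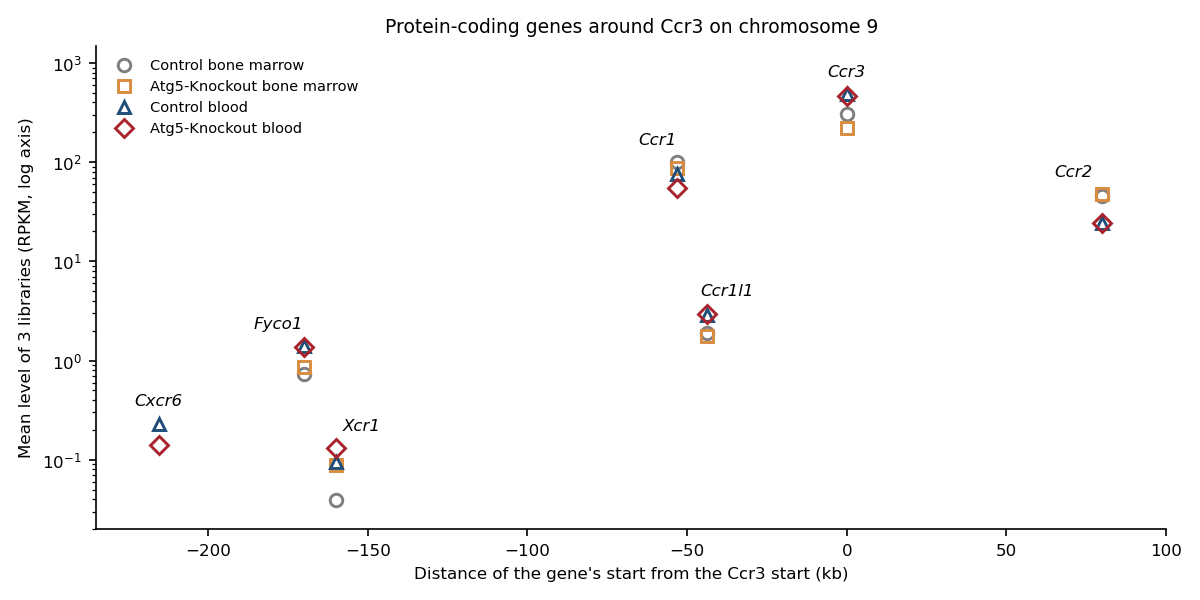
Mean level of 3 libraries per group (RPKM, log axis) of the protein-coding genes from 230 kb before to 90 kb after the Ccr3 start on chromosome 9, by the distance of their start from the Ccr3 start in kb. Ccr3 reaches 482 RPKM while Ccr1l1 at -43.6 kb stays below 3 RPKM, and Cxcr6 has no symbol for bone marrow, where it had no count.

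The sequences before the starts of Ccr3, Ccr1, Ccrl2 and Cx3cr1 are shown from RefSeq (GRCm38.p6). Each is the 250 bases upstream of the start, 5′ to 3′ on the strand of the gene. Ccr3, Ccrl2 and Cx3cr1 were called higher in blood in both genotypes. Ccr1, of the same cluster as Ccr3, was called lower in Atg5-knockout but not in control eosinophils (log2 fold change -0.42, edgeR adjusted p = 0.266). Capitals mark matches on either strand to 5 motifs. The motif of GATA factors was searched as AGATAA. For PU.1, a factor of myeloid cells, the letters were GAGGAA. The AP-1 motif was taken as TGANTCA. The TATA box was searched for as TATAAA, and the NF-kB motif is given by name alone. The windows are chr9:124021721-124021970 on the plus strand for Ccr3, and on the minus strand chr9:123968693-123968942 for Ccr1, chr9:111057519-111057768 for Ccrl2 (the outermost of 3 starts) and chr9:120068297-120068546 for Cx3cr1.
Ccr3: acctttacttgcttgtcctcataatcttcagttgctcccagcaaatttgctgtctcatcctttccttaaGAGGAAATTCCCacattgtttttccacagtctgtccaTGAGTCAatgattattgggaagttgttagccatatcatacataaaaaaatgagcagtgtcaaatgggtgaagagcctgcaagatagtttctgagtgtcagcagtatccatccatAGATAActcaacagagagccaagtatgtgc
Ccr1: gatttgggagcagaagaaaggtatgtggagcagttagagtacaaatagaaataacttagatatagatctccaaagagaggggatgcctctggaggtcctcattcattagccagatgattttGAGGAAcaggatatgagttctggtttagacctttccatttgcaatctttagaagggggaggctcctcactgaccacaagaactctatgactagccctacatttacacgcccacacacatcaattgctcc
Ccrl2: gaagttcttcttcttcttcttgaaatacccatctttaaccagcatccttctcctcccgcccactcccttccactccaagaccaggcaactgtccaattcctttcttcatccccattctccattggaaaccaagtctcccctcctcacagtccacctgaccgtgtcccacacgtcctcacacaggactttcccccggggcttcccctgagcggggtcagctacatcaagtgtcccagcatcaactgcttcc
Cx3cr1: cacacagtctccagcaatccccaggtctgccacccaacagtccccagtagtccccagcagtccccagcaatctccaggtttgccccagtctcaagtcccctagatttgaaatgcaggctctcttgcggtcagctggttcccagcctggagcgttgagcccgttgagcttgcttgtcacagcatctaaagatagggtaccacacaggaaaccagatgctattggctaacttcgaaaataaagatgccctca

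In the Ccr3 window the GATA match begins 30 bases before the start and the AP-1 match 144 bases before it, and the PU.1 and NF-kB matches, which begin 181 and 179 bases before it, overlap each other. The Ccr1 window held a PU.1 match, and the Ccrl2 and Cx3cr1 windows shown held none of the 5 motifs. Over the 10 windows of the 8 genes, a GATA match was found for 3 genes (Ccr3, Ccr2 and the inner starts of Ccrl2), a PU.1 match for 3 (Ccr3, Ccr1 and Cxcr2), a TATA match for 2 (Ccr1l1 and Cxcr4) and NF-kB and AP-1 matches for 1 each (Ccr3). Among all 32851 windows of this length in the table, 9.99% held the GATA letters, 23.3% those of PU.1, 12.4% the TATA box, 6.75% AP-1 and 1.41% NF-kB. The matches describe these letters only and are no evidence of binding.

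The genes most like each receptor were found by the correlation of log2 CPM over the 12 libraries, among 14711 other genes, and the correlations are also given within the 6 libraries of each tissue because the tissues form separate groups. Libraries share depth and cell content, so that such likeness is a description. Cdc42, a small GTPase of cell polarity, was most like Ccr3, with 0.974 over all libraries, 0.956 within bone marrow and 0.959 within blood, followed by Bcl2a1d and Itm2b. Cxcl2, Cxcl3 and Sik1 were most like Ccrl2, each with 0.994 over all libraries. Within blood these were 0.979, 0.976 and 0.934, and within bone marrow, where Cxcl2 and Cxcl3 had at most 3 counts per library, 0.011, 0.194 and 0.690. Cxcl2 had 145, 263 and 14.1 CPM in control and 488, 260 and 645 CPM in Atg5-knockout blood, so that Control blood replicate 3 was the lowest blood library in this gene as in Ccrl2.

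Ccr2 was most like Steap3, Lcn2 and Ibtk. Lcn2, a neutrophil granule gene, had a correlation with Ccr2 of 0.982 within blood and -0.134 within bone marrow. Cxcr2 was most like Cstdc4, Gpat3 and Ceacam10 (0.915, 0.894 and 0.893 over all libraries), with values of at least 0.839 within each tissue. Cxcr4 was most like Rdh11, Ppp2r5a and Rnd3 (0.912, 0.906 and 0.857), and Cx3cr1 most like Gpcpd1, Skint3 and Xaf1 (0.985, 0.977 and 0.976). Rnd3 had 0.54 within bone marrow and 0.954 within blood, and the other 5 genes had at least 0.879 within each tissue. For Ccr1 and Ccr1l1 no gene reached 0.9.

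**Figure D5:**
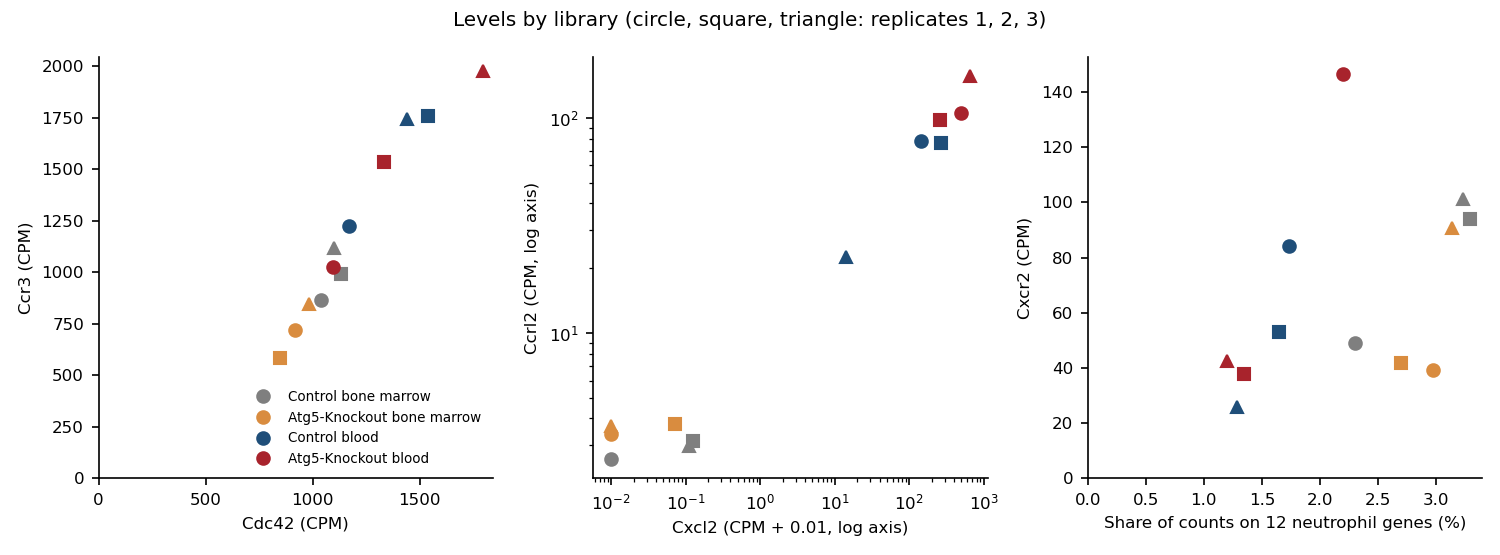
Values of the 12 libraries, coloured by group, for Ccr3 against Cdc42 (CPM, linear axes from 0), Ccrl2 against Cxcl2 (CPM, log axes, with 0.01 added to Cxcl2) and Cxcr2 (CPM) against the share of counts on 12 neutrophil genes. Ccr3 and Cdc42 lie along 1 line in both tissues, Ccrl2 follows Cxcl2 in blood and not in bone marrow, and Atg5-Knockout blood replicate 1, at 147 CPM of Cxcr2 and 2.2%, stands above the other blood libraries.

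The partners of the receptors were described from lists of 16 other chemokine receptors, 20 ligands, 15 regulators and 26 signal transducers. Of the other receptors 5 passed the filter in each comparison of the tissues, and 1 of them, Ccr7, a receptor of lymphocytes and dendritic cells, was called, higher in blood in both genotypes. Of all genes tested, 34.2% were called in control and 47.6% in Atg5-knockout eosinophils. Ccr7 had 0.19 to 0.961 CPM in control and 0.505 to 0.613 CPM in Atg5-knockout bone marrow. The control groups overlapped, as Control bone marrow replicate 3 (0.961 CPM) lay above Control blood replicate 3. Ccr7 had 22.3, 2.73 and 0.540 CPM in control and 54.7, 3.30 and 3.42 CPM in Atg5-knockout blood and was highest in the libraries numbered 1, whose share of B cell genes was also the highest. DESeq2 called 3 other receptors in control eosinophils (Ccr7, Ccr9 and Cxcr6) and none in Atg5-knockout eosinophils, and the part of B cells in these values was not tested. Between the genotypes edgeR and DESeq2 called none of the other receptors in either tissue, with 1 (Cxcr1) at an unadjusted p under 0.05 in bone marrow and 0 in blood. Cxcr1, a relative of Cxcr2, had at most 2.19 CPM in any library and no called difference.

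Of the 20 ligands 10 were tested between the tissues, and in blood 8 rose and 1 fell in control eosinophils and 9 rose and 1 fell in Atg5-knockout eosinophils, with median log2 fold changes of 4.51 and 4.18, against -0.0029 and -0.010 over all genes. Of all genes tested, 16.2% were called higher and 18% lower in control, and 23.5 and 24.1% in Atg5-knockout eosinophils. Ccl5, a ligand of Ccr3 and Ccr1, rose from 0.452 ± 0.0708 CPM (SD, n = 3) in control bone marrow to 182 ± 95.2 CPM (SD, n = 3) in control blood (edgeR adjusted p = 8.82e-06) and from 0.793 ± 0.198 to 167 ± 10.2 CPM (SD, n = 3 each) in Atg5-knockout eosinophils (edgeR adjusted p = 3.18e-07). NK and T cells are known to express Ccl5. The 12 NK and T cell genes took a mean of 0.0106% of the counts in control bone marrow and 0.045% in control blood. Among them Gzma had 2.1 ± 0.768 and 291 ± 112 CPM in these groups, and Nkg7 had 86.6 ± 3.16 and 95.4 ± 31.5 CPM (SD, n = 3 each). The part of NK and T cells in the Ccl5 values was not tested. Cxcl2, a ligand of Cxcr2, rose from a total of 6 counts over the control and 2 over the Atg5-knockout bone marrow libraries to 8631 and 29757 counts in blood. The 1 ligand that fell, named after its values were seen, was Cxcl12, the ligand of Cxcr4, with 136 and 222 counts over the control and Atg5-knockout bone marrow libraries and 2 and 0 counts in blood. Between the genotypes edgeR called no ligand in either tissue. The lowest p in bone marrow belonged to Ccl9, a ligand of Ccr1, with 554, 931 and 811 CPM in control and 450, 346 and 458 CPM in Atg5-knockout libraries (log2 fold change -0.90, SE 0.18, edgeR adjusted p = 0.0649), and to Ppbp (log2 fold change 1.45, SE 0.338, edgeR adjusted p = 0.133). DESeq2 called both, and 2 of the 7 ligands tested had an unadjusted p under 0.05. In blood 1 of 9 ligands tested, Ppbp, had an unadjusted p under 0.05 (log2 fold change -2.44, edgeR adjusted p = 1), and DESeq2 called none. Ppbp is a platelet gene with 9.48 to 107 CPM in control and 5.57 to 11.5 CPM in Atg5-knockout blood. The share of the 10 platelet genes was 0.0098 to 0.0311% in control and 0.0065 to 0.00769% in Atg5-knockout blood, and 0.0167 to 0.0204% and 0.0191 to 0.0234% in bone marrow, and the part of platelets in the Ppbp values was not tested.

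Of 13 regulators, the genes that switch receptors off, 5 rose and 1 fell in control and 8 rose in Atg5-knockout blood, beside 34.2 and 47.6% of all genes called. Their median log2 fold changes were 0.30 and 0.59. Rgs1, which speeds the return of G proteins to rest, went from 2.38 ± 0.750 to 76.6 ± 51.8 CPM (SD, n = 3 each) in control (edgeR adjusted p = 0.000276) and from 2.34 ± 0.606 to 161 ± 34.8 CPM (SD, n = 3 each) in Atg5-knockout eosinophils (edgeR adjusted p = 8.69e-07). The receptor kinases Grk5 and Grk2 rose in both genotypes, and Rgs18 fell in control eosinophils (log2 fold change -0.92, SE 0.206, edgeR adjusted p = 0.00902). Of the 26 signal transducers 10 rose and none fell in control blood, with 12 at an unadjusted p under 0.05, beside 34.2% of all genes called and 44.9% at an unadjusted p under 0.05. In Atg5-knockout blood 15 rose and 1, Vav1, fell, beside 47.6% of all genes called. The medians of the list were 0.45 and 0.43 on the log2 scale. Pik3r5, the regulatory subunit of the phosphoinositide kinase that these receptors activate, led both, with log2 fold changes of 1.36 (SE 0.214, edgeR adjusted p = 0.00179) and 1.73 (SE 0.165). The other transducers of lowest p included Prex1, an exchange factor for Rac, with 0.99 and 0.89, Dock2, another such factor, with 1.22 in control, and the GTPase Rhoa with 0.91 in Atg5-knockout eosinophils. Between the genotypes no regulator or transducer was called by edgeR or DESeq2 in either tissue, and in bone marrow 1 of each list had an unadjusted p under 0.05, Rgs2 and Cdc42, with log2 fold changes of -0.48 and -0.28. In blood 1 regulator (Rgs1, log2 fold change 1.09) and 0 transducers had an unadjusted p under 0.05.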

How the data were processed

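RNA-seq counts of 12 libraries of mouse eosinophils were used. The deposited values are raw counts of each gene, not normalized by the authors. The Methods describe a stranded mRNA kit and single-end reads of 100 bases, aligned with HISAT2 2.2.1 and counted with featureCounts. The header of the deposited count table names featureCounts 2.0.1, GRCm38 and Ensembl release 92, a setting for paired ends and none for strand, while the Methods name an annotation on GRCm39 and the submitters' processing notes name both builds. Coordinates are those of the table. Symbols came from GENCODE M39 (49674 of 53801 identifiers matched), and promoter sequences from RefSeq, where all 8 genes matched.

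Each comparison was fitted on its own 6 libraries with edgeR 4.0.16 in R 4.3.3 (TMM, filterByExpr with a minimum count of 10 and a minimum total of 15, quasi-likelihood test, prior count 0.125, Benjamini-Hochberg adjustment over all genes), and the interaction on all 12. A call needed an adjusted p under 0.05. Alternatives were DESeq2 1.42.0, other scaling, other filters, a fit of all libraries, a replicate block, the omission of red cell genes and of single libraries, and, chosen after the data were seen, of both blood libraries numbered 1. In the comparison of the tissues within a genotype, this last omission is the same fit as that of the genotype's own blood library numbered 1. It is counted under both names among the settings. The fit was tested on simulated counts with known changes. The members and the lists of genes were chosen with earlier results of these data known. The genes named beside the members were at most 4 called genes of lowest p per list and comparison or the 2 of lowest p where none was called, the 3 most like each member, and the genes within 500 kb of the cluster. Cxcl12 and Vav1, and values of other genes outside this rule, were named after they were seen.

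The design names 3 mice per genotype, but the labels do not tie replicate numbers to mice, so the p-values measure the spread between these libraries. Replicates differed by more than sampling noise (chi-square over degrees of freedom at least 16.9). Blood libraries of the same number deviated together between the genotypes (correlations 0.499, 0.208 and 0.298), and those of unlike numbers had correlations from -0.408 to 0.137. For the same number the correlations were -0.147, -0.105 and 0.00414 in bone marrow and -0.105 to 0.129 between the tissues. Deviations from a mean of 3 libraries depend on each other, so these values cannot show that the numbers pair the libraries. Counting error matters most for the members with few counts. These were Ccr1l1, with 45 to 96 counts in a library, and Ccrl2 in bone marrow, with 83 to 120.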

Additional observations from a re-analysis of the deposited data

How the results depend on the processing

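Of 632 values of the members under other settings, 564 kept their direction and side of the threshold, 43 changed sign, 16 came to pass the threshold and 9 no longer passed it. Between the tissues, the fit without a genotype's blood library numbered 1 entered these values under both of its names. Ccrl2 and Cx3cr1 were called higher in blood in both genotypes in every setting run, with log2 fold changes of 4.02 to 4.72 and 0.87 to 1.4 in control and of 4.82 to 5.19 and 1.20 to 1.51 in Atg5-knockout eosinophils. In bone marrow, members called between the genotypes went from 0 to 1 in DESeq2 and 2 without a filter on low counts, and all genes called from 48 to 192 in DESeq2, 420 without a filter, 12 with all libraries in the fit and 18 to 219 without single libraries (219 without Control bone marrow replicate 1, 18 without Control bone marrow replicate 3). In blood, all genes called went from 5 to 23 in DESeq2, 77 without a filter, 16 with all libraries and 2 to 6 without single libraries. Between the tissues in control eosinophils, all genes called went from 4678 to between 2627 and 5926 without single libraries, and members called from 3 to between 2 and 5. The 5 came without Control blood replicate 1, which in this comparison is the same fit as without both blood libraries numbered 1. Genes called for the interaction went from 0 to 11 in DESeq2 and 119 without a filter. The cause of these shifts was not tested.

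With the replicate number as a block, which treats libraries of the same number as paired, 23 genes were called between the genotypes in bone marrow and 10 in blood. Ccr2 came to be called lower in control blood than bone marrow (log2 fold change -1.02, edgeR adjusted p = 0.0338). The block changed no other call of a member.

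Some log2 values changed sign. Between the genotypes in bone marrow, Cx3cr1 was 0.0211 with library size alone, 0.0181 with all libraries and 0.0278 with the block, and without single libraries Cx3cr1 ranged from -0.26 to 0.19, Ccr2 from -0.0754 to 0.14 and Ccr1l1 from -0.295 to 0.0902. In blood, Ccr3 was 0.0268 with library size alone and 0.0202 without both libraries numbered 1, Ccr2 was -0.0079 without a filter, -0.0008 with all libraries and -0.0396 without both libraries numbered 1, and Ccr1l1 was -0.0093 without them. Without single libraries these ranged from -0.29 to 0.17 for Ccr3, -0.32 to 0.24 for Ccr2, -0.14 to 0.24 for Ccr1l1 and -0.43 to 0.95 for Cxcr2. Between the tissues in Atg5-knockout eosinophils Cxcr2 was -0.50 to 0.90 without single libraries, with -0.50 without Atg5-Knockout blood replicate 1. In the interaction Ccr2 was 0.0625 with library size alone and 0.0292 with the block, and without single libraries Ccr2 ranged from -0.40 to 0.16, Ccr1 from -0.54 to 0.0819, Ccr1l1 from -0.0897 to 0.31 and Cxcr4 from -0.28 to 0.32.

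With 3 libraries a group, differences of the size of the intervals given are not shown to be absent. Ccr1l1, at 45 to 96 counts a library, was the member measured with the fewest reads.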
